A study of Mus musculus with 6 samples.

Results

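The serine proteases named Prss or Tmprss and the serpins were followed in the testis of WT and Trf2-/- mice. Members were all genes of the deposited table that are listed as protein coding and whose symbol is Prss or Tmprss followed by a digit, or starts with Serpin. They numbered 86 of the 26743 genes in the table, with 45 proteases and 41 serpins. A further 6 genes with such symbols were listed under another biotype, namely Prss56 as a lincRNA and 5 serpin pseudogenes, and were not members. RNA was taken from whole testis at 21 days of age, from 3 mice that are WT and 3 that are Trf2-/-, which carry either the intact gene or an inactivated Trf2, a relative of the TATA-binding protein, in the whole animal. The methods name a 129/SvPas background where they describe a tagged Trf2 line, and the labels of these mice give no strain. Ribosomal RNA was removed from total RNA, and single-end reads of 50 bases were counted on genes. The question was how the proteases of the testis and the inhibitors of this enzyme class differ between the genotypes.

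Serine proteases of the trypsin type cut proteins with an active-site serine, and the testis makes a large group of them that is found in few other tissues. Several are made in spermatocytes and spermatids and end up in the acrosome or on the sperm surface, where acrosin is the best known. Most serpins act as suicide substrates that trap such enzymes, while some, such as the collagen chaperone encoded by Serpinh1, inhibit no protease.

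Counts on genes summed to between 21582123 and 29859347 in WT mice and between 15187062 and 24530489 in Trf2-/- mice, with the lowest total in Trf2-/- mouse 3. At these depths the 3 counts that a count of 0 still allows stand for 0.105 to 0.190 CPM (TMM-normalised counts scaled to library size), which covers counting error only. Tbpl1, the symbol of Trf2 in the table, was at 308, 283 and 294 CPM in WT and at 62.9, 64.3 and 55.8 CPM in Trf2-/- mice, a log2 fold change of -2.27 (edgeR adjusted p = 1.18e-06). The Sertoli cell markers summed to between 2002 and 2114 CPM in WT and, higher without overlap, between 2278 and 2471 CPM in Trf2-/- mice. Those of pachytene spermatocytes summed to between 5840 and 6251 CPM in WT and, lower without overlap, between 4502 and 5176 CPM in Trf2-/- mice. Markers of the labelled tissue were thus present in all mice. Of the markers of elongating spermatids, Prm2 and Prm3 had at most 2 counts in any mouse. The transcripts came from whole testis, so fewer cells of a type and less RNA per cell cannot be told apart in any of the values given here.

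Many proteases were lower in Trf2-/- testis, whereas no serpin passed the test in that direction. Of 27 proteases with enough counts to be tested, 13 fell in Trf2-/- testis, 1 rose and 13 did not pass the test (adjusted p under 0.05, edgeR's quasi-likelihood test with Benjamini-Hochberg adjustment over all 16924 genes tested). Of 22 serpins tested, 0 fell, 4 rose and 18 did not pass the same edgeR test. At an unadjusted p under 0.05, 1 serpin was lower, and DESeq2 also called 0 serpins lower. Among all genes tested 20.2% fell and 11.2% rose, against 48.1% and 3.70% of the tested proteases and 0% and 18.2% of the tested serpins. With a fold change of at least 2 as a further condition, 6 proteases fell and 2 serpins rose, beside 4.30% of all genes that fell and 0.609% that rose. Prss54 and Serpina3f, which are in these counts, entered the test only through the genotype where they were higher.

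The median log2 fold change was -0.31 over the tested proteases and 0.34 over the tested serpins, beside 0.04 over all genes. The protease median was -0.089 with DESeq2 and -0.080 with no filter on low counts, where more weakly expressed genes enter. Log2 fold changes were negative for 20 of 27 proteases and for 3 of 22 serpins. The values of the genotypes did not overlap, with Trf2-/- below WT, for 13 proteases and 2 serpins, a pattern shown by 26.8% of all genes. They did not overlap with Trf2-/- above WT for 1 protease and 7 serpins, a pattern shown by 22.3% of all genes. With scaling by library size alone the median of all genes was 0.13, and the counts were 11 proteases that fell, 2 that rose and 7 serpins that rose. The share of the members' calls that were lower was then 55% instead of 72.2%. Over the calls of all genes that share was 38.7% instead of 64.4%.

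**Figure D1:**
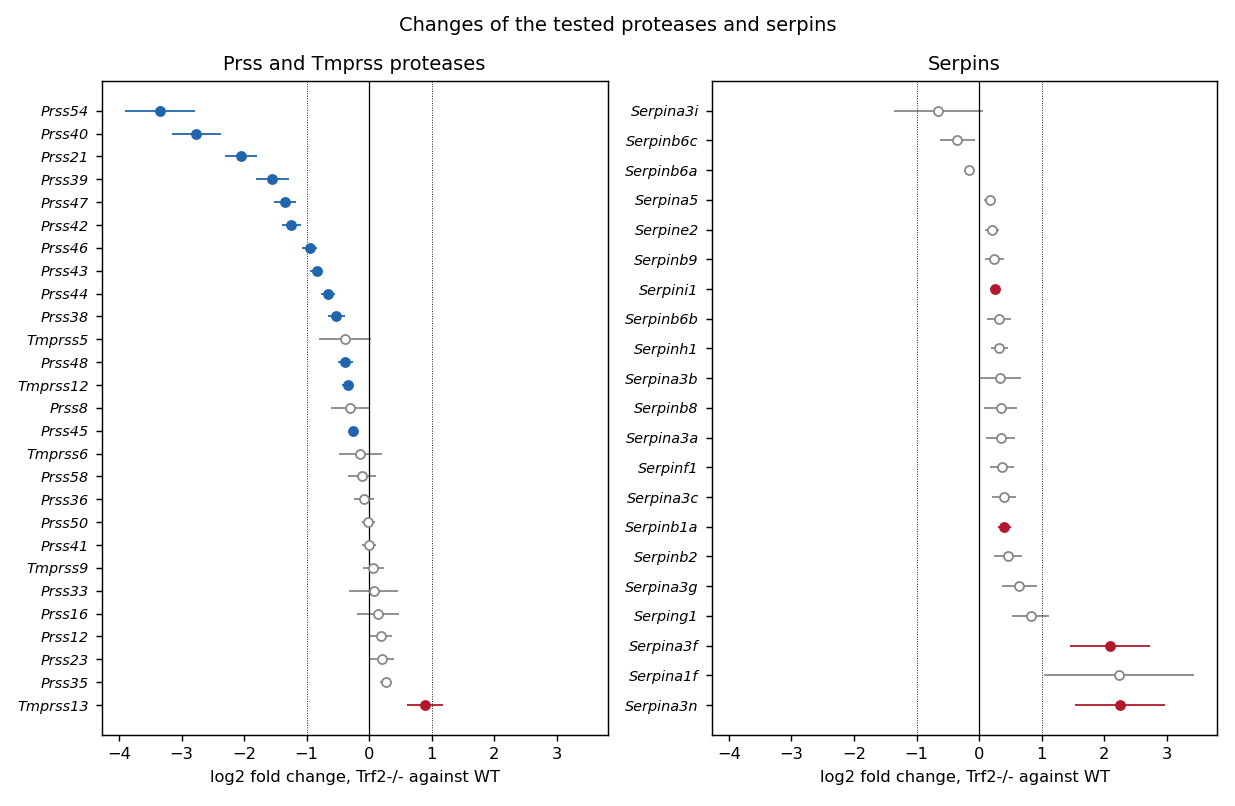
Log2 fold change of Trf2-/- against WT testis for the 27 tested proteases (left) and for the tested serpins other than 1 that is not drawn (right), with bars of 1 standard error. Filled points passed the edgeR test (blue lower, red higher), open points did not, and dotted lines mark 2-fold: the 13 filled points on the left that lie below 0 include 6 below the 2-fold line, while the 4 filled points on the right lie above 0.

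The filter on low counts left out 18 proteases and 19 serpins. None of these had more than 12 counts (proteases) or 18 counts (serpins) in any mouse, and 13 and 12 of them stayed at or under 3 counts in every mouse. They include Prss52, the membrane protease genes of the Tmprss11 group and the liver serpins Serpina6, Serpina7, Serpinc1 and Serpind1. At this depth a difference in these genes was not detectable. Prss54 passed the filter through the WT mice only and Serpina3f through the Trf2-/- mice only.

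Per kb of gene length, the most abundant members in WT testis came from both classes. Serpina5, the protein C inhibitor that also blocks acrosin, was at 58.9 CPM per kb, and Prss50, a testis protease with an unusual catalytic residue, at 54.6 CPM per kb. Prss35, a protease-like protein thought to be inactive, followed at 48.0 CPM per kb, then Serpinb6a, an intracellular inhibitor, at 42.9 and the acrosomal protease gene Prss39 at 41.2 CPM per kb. In Trf2-/- testis Serpina5, Prss35 and Prss50 were at 66.0, 57.5 and 54.1 CPM per kb, whereas Prss39 was at 13.8 CPM per kb.

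The proteases known from the testis held most of the decreases. Of 16 listed genes 13 were in the table and 12 could be tested: 10 fell, 5 of them by at least 2-fold, and 0 rose with edgeR (0 also at an unadjusted p under 0.05). Their median log2 fold change was -0.90, and all 12 values were negative, with Prss41 and Prss50 close to 0. The other 15 tested proteases had a median of -0.08, and 3 of them fell (Prss38, Prss47 and Prss48) while Tmprss13 rose. The list of testis proteases was chosen with earlier results of these data known. Summed over the list, the testis proteases were at 252, 238 and 241 CPM per kb in WT and at 155, 168 and 143 CPM per kb in the Trf2-/- mice, without overlap. The other proteases summed to between 84.7 and 95.6 CPM per kb in WT and between 82.8 and 95.8 CPM per kb in Trf2-/- mice, and these ranges overlap.

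The decreases were also seen in the single mice. The median log2 ratio of the testis proteases to their WT mean was -0.83, -0.88 and -1.004 in Trf2-/- mice 1, 2 and 3. Of the 13 proteases that fell, 12 had their lowest value in Trf2-/- mouse 3, as did 75.2% of all genes that fell and 25.9% of all genes tested. Leaving out that mouse left 11 proteases that fell, and 9 of the 13 passed the edgeR test whichever mouse was left out. Those 9 were Prss21, Prss39, Prss40, Prss42, Prss43, Prss44, Prss46, Prss47 and Prss54.

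**Figure D2:**
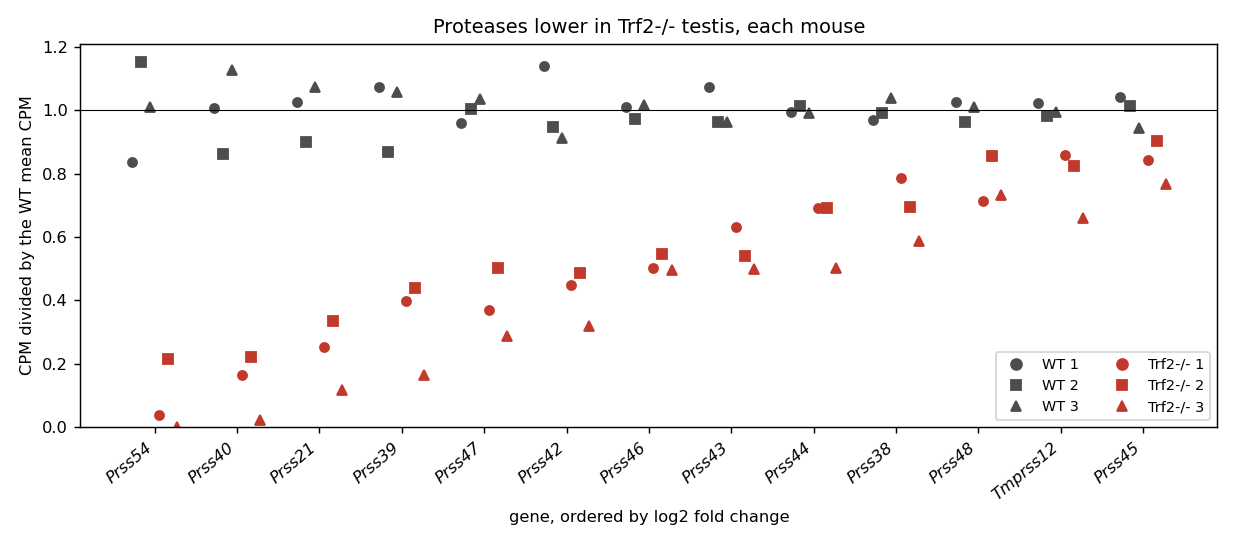
CPM of each mouse divided by the mean CPM of the 3 WT mice, for the 13 proteases that fell, ordered by log2 fold change. WT mice are grey and Trf2-/- mice red, with a symbol for each mouse number; the horizontal line is the WT mean. No red point reaches the grey points of its gene, and Trf2-/- mouse 3 (triangles) is the lowest in 12 of the 13 genes.

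Prss54, a testis gene whose protein is thought to lack catalytic activity, had the lowest ratio (ENSMUSG00000048400, chromosome 8, 98083033 to 98099355 on the minus strand of the mouse build mm9). It had 24, 30 and 21 counts in WT and 1, 5 and 0 counts in Trf2-/- mice. Trf2-/- mice 1 and 3 were thus at or under the floor of 3 counts, and no mouse of one genotype reached the other. The level was 0.998 ± 0.157 CPM (SD, n = 3) in WT and 0.0847 ± 0.114 CPM (SD, n = 3) in Trf2-/- testis. The log2 fold change of -3.35 (SE 0.56, edgeR adjusted p = 0.00250) rests on these few counts. Prss54 passed the filter on low counts through the WT mice only, where it was higher, so its test is not independent of that filter.

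Prss39 and Prss40 encode TESP1 and TESP2, paralogous proteases of the acrosome. They lie 40.9 kb apart on chromosome 1, Prss39 (ENSMUSG00000026125) from 34555275 to 34559907 on the plus strand and Prss40 (ENSMUSG00000037529) from 34600820 to 34617788 on the minus strand. Prss39 was at 55.1, 44.5 and 54.3 CPM in WT and at 20.4, 22.6 and 8.47 CPM in Trf2-/- mice. All 3 Trf2-/- values lay below the WT values, with mouse 3 lowest. The log2 fold change was -1.55 (SE 0.26, edgeR adjusted p = 0.00265), from 51.3 ± 5.91 to 17.1 ± 7.59 CPM (SD, n = 3 each).

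Prss40 was less abundant and fell further. It had 236, 184 and 192 counts in WT and 34, 42 and 3 counts in Trf2-/- mice, which is 8.16 ± 1.08 CPM in WT and 1.11 ± 0.831 CPM in Trf2-/- testis (SD, n = 3 each). The genotypes did not overlap, and Trf2-/- mouse 3 was at the floor. On the log2 scale the change was -2.77 (SE 0.39, edgeR adjusted p = 0.00123) and ran from -3.23 to -2.36 with each mouse left out in turn. Of the 50-base windows in the transcripts of Prss40, 11.5% also occur in another gene, mainly Cfc1, so some of its reads could have been assigned elsewhere, whereas Prss39 shares 1 window with Prss40.

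Prss21, which encodes testisin, a membrane-anchored protease of spermatids and sperm, lies on chromosome 17 (ENSMUSG00000024116, 24005023 to 24010081, plus strand). It was at 24.3, 21.3 and 25.4 CPM in WT and at 5.95, 7.93 and 2.78 CPM in Trf2-/- mice. The lowest WT mouse was thus above the highest Trf2-/- mouse by a wide margin. The log2 fold change was -2.05 (SE 0.26, edgeR adjusted p = 0.000827), a 4.13-fold lower level. Prss47, on chromosome 13 (ENSMUSG00000090658, 65145991 to 65153182, minus strand), was at 11.6, 12.1 and 12.5 CPM in WT and at 4.48, 6.09 and 3.48 CPM in Trf2-/- mice. It fell by 1.35 on the log2 scale (SE 0.17, edgeR adjusted p = 0.000893).

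The sequence around the RefSeq start of the members was searched for short motifs. Promoter windows of 250 bases before and 50 bases after the start were found for 39 of the 49 tested members in RefSeq, on the build GRCm38.p6. The palindrome CACGTG, an E-box, was in 5 of 10 windows of proteases that fell, in 0 of 10 windows of the other tested proteases, in 0 of 19 serpin windows, and in 7.15% of all 32851 RefSeq windows. This motif was added after the sequences had been seen. Only the first listed window of each member was searched, whereas the share over all windows counts every window. Prss43, Prss44 and Prss48 also fell but had no window. Prss39 and Prss40, both among the 5, have the most similar windows of the tested proteases, so their matches may not be independent. The letters TATAAA, searched on both strands like the others, were in 0 of the 10 windows of proteases that fell, in 0 of 10 of the other proteases, in 6 of 19 serpin windows and in 13.6% of all windows. TGACG, the core of a cyclic AMP response element, was in 2, 1 and 1 windows of these sets and in 20.8% of all windows, and the full element TGACGTCA, which contains it, was in 0 windows of the 3 sets and in 1.79% of all windows. These are matches of letters and not binding sites.

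The stretches shown here hold the last 100 bases before and the first 20 bases after the start of the 5 proteases that fell and carry CACGTG, which is in capitals, followed by 2 of the proteases with the largest decreases that lack it. On GRCm38.p6 they lie at chr1:34498312-34498431 (Prss39, plus strand), chr1:34560924-34561043 (Prss40, minus), chr9:110798085-110798204 (Prss42, plus), chr9:110834488-110834607 (Prss45, plus), chr11:59375634-59375753 (Prss38, minus), chr17:23867972-23868091 (Prss21, plus) and chr8:95575588-95575707 (Prss54, minus).
Prss39: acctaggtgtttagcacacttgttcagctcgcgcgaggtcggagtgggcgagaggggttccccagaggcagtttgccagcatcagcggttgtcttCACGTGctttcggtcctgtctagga
Prss40: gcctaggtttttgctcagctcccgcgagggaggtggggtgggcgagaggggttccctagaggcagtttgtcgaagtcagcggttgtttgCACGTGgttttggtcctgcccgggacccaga
Prss42: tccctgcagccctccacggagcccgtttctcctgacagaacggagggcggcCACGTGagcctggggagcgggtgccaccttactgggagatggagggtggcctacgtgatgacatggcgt
Prss45: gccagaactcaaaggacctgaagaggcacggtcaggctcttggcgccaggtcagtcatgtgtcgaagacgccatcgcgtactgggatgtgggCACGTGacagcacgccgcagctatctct
Prss38: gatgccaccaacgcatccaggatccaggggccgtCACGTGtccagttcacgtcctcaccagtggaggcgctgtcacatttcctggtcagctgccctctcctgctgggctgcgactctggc
Prss21: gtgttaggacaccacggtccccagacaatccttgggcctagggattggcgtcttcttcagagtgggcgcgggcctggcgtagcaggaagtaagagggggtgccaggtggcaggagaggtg
Prss54: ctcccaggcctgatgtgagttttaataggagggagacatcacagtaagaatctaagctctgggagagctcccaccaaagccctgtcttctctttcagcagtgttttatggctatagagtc

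With the base before the start counted as -1, CACGTG begins at -5 in Prss39 and at -11 in Prss40. It begins at -49 in Prss42, at -8 in Prss45 and at -66 in Prss38. The windows of Prss39 and Prss40 were the most similar of the 190 pairs of tested proteases, with 63.5% identity over 300 bases, beside 57.4% for the next pair and a median of 52.3%. Over the 120 bases printed the identity of this pair was 74.2%.

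A further group of proteases that fell lies in a row on chromosome 9. Prss42, Prss44, Prss43, Prss45, Prss46 and Prss50 follow each other on the plus strand between 110700670 and 110767132 (mm9), with gaps of 10.3, 2.17, 3.09, 3.19 and 1.45 kb and no other gene of the table between them. Prss42, Prss43 and Prss44 encode the testis-specific proteases TESSP2, TESSP3 and TESSP4. The first 5 genes fell, each to a different degree, and Prss50 at the end of the row did not pass the test. None of the 6 shares a 50-base window with the protein-coding transcripts of another gene, so exact reads could be told apart from those transcripts. Noncoding genes and matches with mismatches were not examined.

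Prss42 (ENSMUSG00000044664) had the largest decrease of the row. It was at 44.6, 37.0 and 35.6 CPM in WT and at 17.6, 18.997 and 12.5 CPM in Trf2-/- mice, a 2.37-fold lower mean with no overlap. Its log2 fold change was -1.24 (SE 0.15, edgeR adjusted p = 0.000624). Prss46 (ENSMUSG00000049719), the least abundant of the row, was at 6.97, 6.70 and 7.00 CPM in WT and at 3.45, 3.77 and 3.41 CPM in Trf2-/- mice, with a spread within each genotype far below the difference. Its log2 fold change was -0.95 (SE 0.12, edgeR adjusted p = 0.000878).

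Prss43 (ENSMUSG00000058398) was at 24.5, 22.0 and 22.0 CPM in WT and at 14.4, 12.3 and 11.4 CPM in Trf2-/- mice, with a log2 fold change of -0.84 (SE 0.10, edgeR adjusted p = 0.000735). Prss44 (ENSMUSG00000032493) was at 41.3, 42.1 and 41.3 CPM in WT and at 28.8, 28.7 and 20.9 CPM in Trf2-/- mice, with a log2 fold change of -0.66 (SE 0.11, edgeR adjusted p = 0.00227). In both genes the genotypes did not overlap. Prss45 (ENSMUSG00000047257) was at 43.0, 41.9 and 39.1 CPM in WT and at 34.9, 37.3 and 31.7 CPM in Trf2-/- mice. This smaller decrease of 0.25 on the log2 scale (SE 0.07, edgeR adjusted p = 0.0292) did not pass the test without WT mouse 1 (adjusted p = 0.102, edgeR), WT mouse 2 (0.0937), Trf2-/- mouse 1 (0.0729) or Trf2-/- mouse 3 (0.0516).

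Prss50 (ENSMUSG00000048752), only 1.45 kb downstream of Prss46, was at 77.3, 85.0 and 76.0 CPM in WT and at 66.1, 78.9 and 91.0 CPM in Trf2-/- mice. Its genotypes overlapped, and Trf2-/- mouse 3, the lowest mouse for 12 of the 13 proteases that fell, was here the highest. On the log2 scale the change was -0.02 (SE 0.10, edgeR adjusted p = 0.909).

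**Figure D3:**
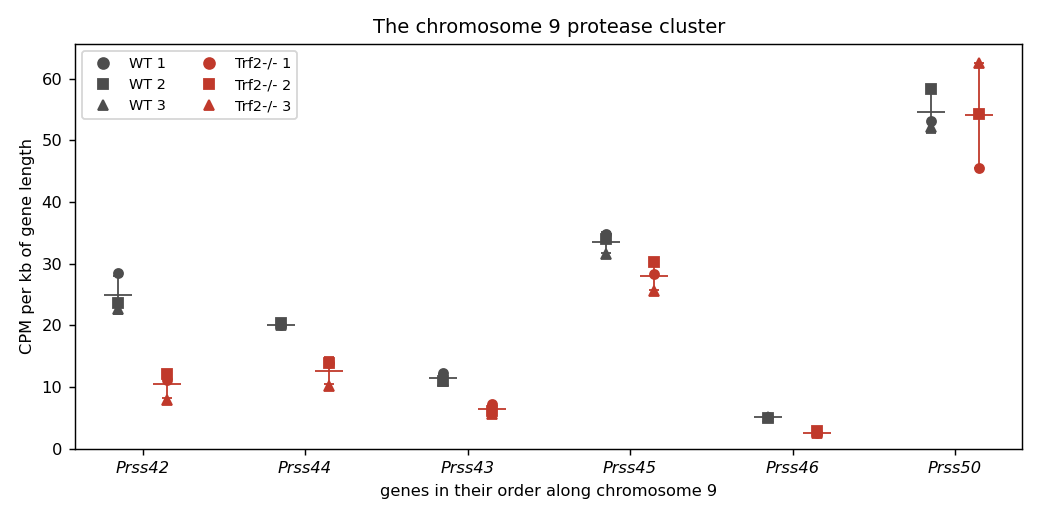
Level of the 6 protease genes on chromosome 9 in CPM per kb of gene length, in their order along the chromosome; points are mice, horizontal bars the mean and vertical bars 1 SD of 3 mice per genotype. The Trf2-/- mice lie below the WT mice for Prss42, Prss44, Prss43, Prss45 and Prss46, and on both sides of them for Prss50.

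Smaller decreases were found for 3 more proteases. Tmprss12, a membrane protease of male germ cells needed for fertility (ENSMUSG00000045631, chromosome 15), was at 38.3, 36.8 and 37.2 CPM in WT and at 32.2, 30.9 and 24.8 CPM in Trf2-/- mice, a log2 fold change of -0.35 (SE 0.09, edgeR adjusted p = 0.0205). Prss38 (ENSMUSG00000049291, chromosome 11) was at 7.84, 8.01 and 8.40 CPM in WT and at 6.35, 5.62 and 4.74 CPM in Trf2-/- mice, a log2 fold change of -0.52 (SE 0.13, edgeR adjusted p = 0.0159). Prss48 (ENSMUSG00000049013, chromosome 3) was at 9.30, 8.73 and 9.16 CPM in WT and at 6.47, 7.76 and 6.64 CPM in Trf2-/- mice, a log2 fold change of -0.38 (SE 0.11, edgeR adjusted p = 0.0325).

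In each of these 3 genes the genotypes did not overlap, but the call was lost in some of the fits with 1 mouse fewer. The log2 fold change stayed negative in all of these fits. It ran from -0.43 to -0.24 for Tmprss12, from -0.64 to -0.42 for Prss38 and from -0.48 to -0.34 for Prss48. Tmprss12 did not pass without any 1 of the WT mice, with edgeR adjusted p between 0.0550 and 0.0730. Prss38 did not pass without WT mouse 2 (edgeR adjusted p = 0.0522) or WT mouse 3 (0.0522), and its gene overlaps Gm15755 on the opposite strand. Prss48 passed only without Trf2-/- mouse 2 (edgeR adjusted p = 0.0199), and its edgeR adjusted p was up to 0.0983 without another mouse. With DESeq2 it did not pass (adjusted p = 0.0604).

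Tmprss13, a membrane protease of surface epithelia (ENSMUSG00000037129, chromosome 9, 45127183 to 45155664, plus strand), was the protease that rose. It was at 3.97, 3.29 and 2.54 CPM in WT and at 7.58, 3.56 and 7.33 CPM in Trf2-/- mice. Trf2-/- mouse 2 lay within the WT values. The log2 fold change was 0.89 (SE 0.29, edgeR adjusted p = 0.0442). It passed without Trf2-/- mouse 2 (edgeR adjusted p = 0.00452) and not with any 1 of the other mice left out (edgeR adjusted p between 0.0661 and 0.151).

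The remaining tested proteases did not pass the test. Prss35 (ENSMUSG00000033491, chromosome 9, 86636434 to 86650680, plus strand), was at 134, 107 and 122 CPM in WT and at 162, 138 and 136 CPM in Trf2-/- mice. The Trf2-/- values were thus higher without overlap, but the log2 fold change of 0.26 (SE 0.09) missed the threshold with edgeR (adjusted p = 0.0573) and passed it with DESeq2 (adjusted p = 0.0443). Prss41, which encodes the testis protease TESSP1, was between 7.39 and 8.77 CPM in all 6 mice, with a log2 fold change of -0.00 (edgeR adjusted p = 0.992). The log2 fold changes of the other members of this group lay between -0.38 (Tmprss5) and 0.21 (Prss23).

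Markers of spermatids moved with the proteases. Of 9 tested markers of round spermatids 7 fell, 6 of them by at least 2-fold, and their median log2 fold change was -1.57. This list also holds Acr, itself a serine protease gene, which alone made up most of the summed level in every mouse. Summed over 10 genes the round spermatid markers were between 75.3 and 78.4 CPM in WT and between 31.7 and 47.3 CPM in Trf2-/- mice, lowest in Trf2-/- mouse 3. In that mouse 4 of them, Acrv1, Catsper3, Cst13 and Spaca7, had 0 counts. The markers of elongating spermatids summed to between 5.81 and 6.97 CPM in WT and between 0.885 and 1.54 CPM in Trf2-/- mice, and all 3 that could be tested fell. Among 8 markers of pachytene spermatocytes 5 fell, 2 of them by at least 2-fold, and 2 rose, with a median of -0.21. The part of these cells in the decrease of the proteases was not tested.

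Serpina5 and Serpinb6a, the most abundant serpins per kb in WT testis, did not pass the test. Serpina5, made by Sertoli cells and other epithelia of the male tract (ENSMUSG00000041550, chromosome 12, 105339323 to 105344347, plus strand), was at 120, 138 and 125 CPM in WT and at 148, 155 and 125 CPM in Trf2-/- mice. The genotypes overlapped, with a log2 fold change of 0.17 (SE 0.08, edgeR adjusted p = 0.160). Serpinb6a (ENSMUSG00000060147, chromosome 13) was at 159, 161 and 160 CPM in WT and at 148, 150 and 129 CPM in Trf2-/- mice. It was the serpin that had an unadjusted p under 0.05 in the lower direction, with a log2 fold change of -0.17 (SE 0.06, edgeR adjusted p = 0.0643). The gene overlaps Ripk1, Nqo2 and 1110046J04Rik, and 7.89% of its windows occur in another gene, mainly Ripk1.

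Serpinh1, the collagen chaperone gene (ENSMUSG00000070436, chromosome 7), was at 43.9, 56.3 and 60.0 CPM in WT and at 79.8, 59.5 and 60.5 CPM in Trf2-/- mice. The genotypes overlapped, with a log2 fold change of 0.32 (SE 0.14, edgeR adjusted p = 0.107). Summed over all 41 serpins, levels were 166, 189 and 179 CPM per kb in the WT mice and 270, 203 and 183 CPM per kb in the Trf2-/- mice, so that Trf2-/- mouse 3 lay within the WT range and mouse 1 far above it. The median log2 ratio to the WT mean was 0.41 in mouse 1, 0.25 in mouse 2 and 0.18 in mouse 3. Trf2-/- mouse 1 had the highest value of all 6 mice for 11 of the 22 tested serpins (50%), for 6 of the 27 tested proteases and for 17.7% of all genes tested.

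In 7 members a single mouse dominated, meaning that it had at least 10 counts, at least 2 times the CPM of the next mouse of its genotype and more than every mouse of the other. All 7 are serpins. The mouse was Trf2-/- mouse 1 for Serpina1f, Serpina3f, Serpina3m, Serpina3n and Serping1. It was WT mouse 1 for Serpinc1, which encodes antithrombin, with 18 counts beside 3 to 6 in the other mice, and for Serpinf2, which encodes antiplasmin, with 10 counts beside 0 to 4.

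Serpina3n, an acute phase inhibitor (ENSMUSG00000021091, chromosome 12, 105644939 to 105652539, plus strand), had 200, 195 and 114 counts in WT and 1838, 246 and 160 counts in Trf2-/- mice. These were 6.97, 7.47 and 5.47 CPM in WT and 72.9, 10.5 and 10.1 CPM in Trf2-/- mice, without overlap, but with mouse 1 far above the other Trf2-/- mice. On the log2 scale the change was 2.25 (SE 0.72, edgeR adjusted p = 0.0412), and without Trf2-/- mouse 1 it was 0.62 (edgeR adjusted p = 0.0230). It did not pass without any 1 of the WT mice, with edgeR adjusted p between 0.107 and 0.119, nor with DESeq2 (adjusted p = 0.0600).

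Serpina3f (ENSMUSG00000066363, chromosome 12, 105452754 to 105459339, plus strand) had 6, 5 and 6 counts in WT and 47, 11 and 7 counts in Trf2-/- mice. In CPM these were 0.229 ± 0.0513 CPM in WT and 0.926 ± 0.813 CPM in Trf2-/- testis (SD, n = 3 each), again without overlap. Serpina3f passed the filter on low counts through the Trf2-/- mice only, where it was higher, so its test is not independent of that filter. The log2 fold change of 2.09 (SE 0.64, edgeR adjusted p = 0.0356) was 0.999 without Trf2-/- mouse 1 (edgeR adjusted p = 0.120). It also did not pass without any 1 of the WT mice, with edgeR adjusted p between 0.0745 and 0.114. Serpina3m was too low to be tested, with 0, 0 and 2 counts in WT and 11, 2 and 2 counts in Trf2-/- mice.

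The Serpina3 genes lie side by side on chromosome 12 and resemble each other. Of the 8 members 7 could be tested: 2 rose, and the median log2 fold change of the 7 was 0.40. Of their 50-base windows, 6.75% in Serpina3n, 8.08% in Serpina3f and 11.3% in Serpina3g occur also in another gene, so reads could be split or lost among these copies. Serpina3g was at 2.51, 4.56 and 2.69 CPM in WT and at 3.69, 5.40 and 6.38 CPM in Trf2-/- mice, with overlap (log2 fold change 0.64, edgeR adjusted p = 0.104).

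Serping1, which encodes the C1 inhibitor of complement (ENSMUSG00000023224, chromosome 2), was at 29.2, 39.1 and 39.2 CPM in WT and at 99.8, 42.9 and 46.02 CPM in Trf2-/- mice. The genotypes did not overlap, yet the values of Trf2-/- mice 2 and 3 were close to those of WT. The log2 fold change was 0.82 (SE 0.30, edgeR adjusted p = 0.0618), and 0.30 without Trf2-/- mouse 1 (edgeR adjusted p = 0.131).

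**Figure D4:**
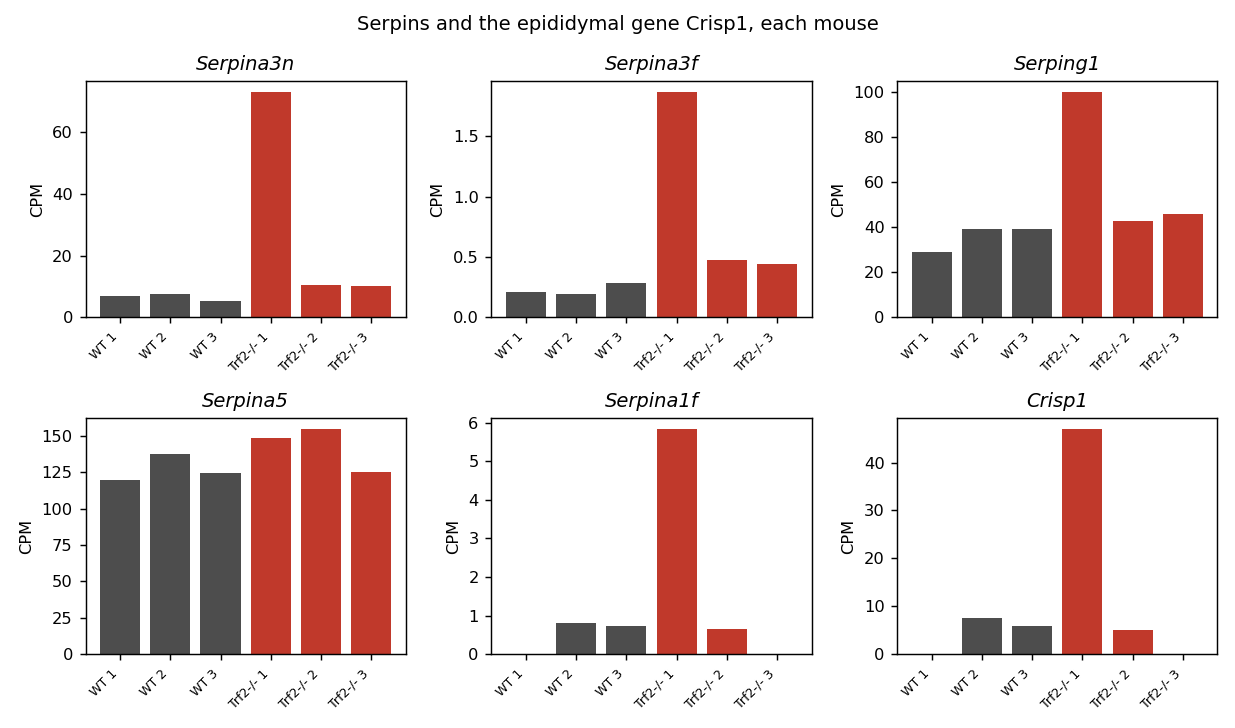
CPM in each of the 3 WT (grey) and 3 Trf2-/- (red) mice for 5 serpins and for Crisp1, a gene of the epididymis; each panel has its own axis, which starts at 0. Trf2-/- mouse 1 stands above all others for Serpina3n (72.9 CPM), Serpina3f, Serping1 (99.8 CPM), Serpina1f and Crisp1, while Serpina5 runs from 120 to 155 CPM over all mice.

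Genes of the acute phase response, of macrophages and of the epididymis were also high in Trf2-/- mouse 1. The list of interferon and acute phase genes summed to between 111 and 122 CPM in WT and to 474, 162 and 130 CPM in Trf2-/- mice 1, 2 and 3. Of its 11 tested genes 3 rose (C3, Hp and Lcn2), and the median log2 fold change of the 11 was 0.71. None of these 3 passed with every mouse left out in turn. Leaving out Trf2-/- mouse 1 moved C3 from 3.04 to 0.37 on the log2 scale (edgeR adjusted p = 0.205), Lcn2 from 2.101 to 0.82 (0.0335) and Hp from 1.89 to 1.67 (0.0786). C3 and Lcn2 did not pass without any 1 of the WT mice, nor Hp without WT mouse 1, WT mouse 3 or Trf2-/- mouse 2, with edgeR adjusted p from 0.0730 to 0.150. Saa3 had 581 counts in Trf2-/- mouse 1 and between 1 and 5 counts in each of the other mice. Of 9 macrophage markers 5 rose, none of them with every mouse left out in turn, and the sum of the list was between 179 and 203 CPM in WT and 403, 244 and 204 CPM in the Trf2-/- mice. Of 8 Sertoli cell markers tested 4 rose (50%) and 0 fell, beside 11.2% and 20.2% of all genes, at a median log2 fold change of 0.21. Median log2 fold changes were 0.22 for peritubular, 0.23 for endothelial and 0.22 for Leydig cell markers, with 1 gene that rose and 0 that fell in each list. The part of these cell types and of the acute phase response in the higher serpin values was not tested.

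Serpina1f, a serpin of the epididymis (ENSMUSG00000021081, chromosome 12, 104926254 to 104933739, minus strand), had 0, 21 and 15 counts in WT and 147, 15 and 0 counts in Trf2-/- mice. The genotypes overlapped fully, and the log2 fold change of 2.24 (SE 1.20, edgeR adjusted p = 0.185) became -0.38 without Trf2-/- mouse 1 (edgeR adjusted p = 0.840). Crisp1, which defines the epididymis, had 2, 195 and 123 counts in WT and 1185, 119 and 0 counts in Trf2-/- mice. In the 4 mice with more than 2 counts of Crisp1, Serpina1f had 10.8 to 12.6 counts per 100 counts of Crisp1, and it had 0 counts in the other 2 mice. All 10 epididymis markers summed to 0.697, 8.92 and 7.00 CPM in the WT mice and to 52.6, 6.39 and 0.506 CPM in the Trf2-/- mice, and between 1 and 6 of them had 0 counts in a mouse.

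The other serpins that rose did so without a dominating mouse. Serpinb1a, an inhibitor of neutrophil proteases (ENSMUSG00000044734, chromosome 13, 32933961 to 32943054, minus strand), was at 7.94, 8.35 and 7.63 CPM in WT and at 10.1, 11.1 and 10.6 CPM in Trf2-/- mice, without overlap. Its log2 fold change was 0.40 (SE 0.10, edgeR adjusted p = 0.0148), and it narrowly missed the threshold without WT mouse 1 (edgeR adjusted p = 0.0521), WT mouse 3 (0.0527) or Trf2-/- mouse 2 (0.0509). Serpini1, which encodes neuroserpin (ENSMUSG00000027834, chromosome 3), was at 16.8, 17.8 and 15.7 CPM in WT and at 19.1, 19.9 and 21.0 CPM in Trf2-/- mice, also without overlap. Its log2 fold change was 0.25 (SE 0.08, edgeR adjusted p = 0.0447), and it did not pass with any 1 of the 6 mice left out, with edgeR adjusted p between 0.0617 and 0.138, nor with DESeq2 (adjusted p = 0.0991). None of the 4 serpins that rose passed with every mouse left out in turn, whereas 9 of the 13 proteases that fell did. In these fits, each with 1 mouse fewer, the log2 fold change ran from 0.36 to 0.44 for Serpinb1a and from 0.20 to 0.29 for Serpini1. Both changes kept their direction but were smaller in size than those of the 9 proteases.

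The remaining serpins were described by their range. Of clade b, the intracellular serpins, 7 of 13 members were tested and 1 of them rose, at a median log2 fold change of 0.32. Serpine2, an inhibitor of plasminogen activators and thrombin, had a log2 fold change of 0.21 (edgeR adjusted p = 0.180). Serpinf1, which encodes pigment epithelium-derived factor, had 0.37 (edgeR adjusted p = 0.173). The lowest log2 fold change of a serpin was -0.65 for Serpina3i (edgeR adjusted p = 0.508), at under 1 CPM in every mouse.

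Other genes of proteolysis in the acrosome were read beside the members. Acr, which encodes acrosin, was at 54.5, 54.7 and 59.7 CPM in WT and at 33.5, 36.1 and 23.4 CPM in Trf2-/- mice, a log2 fold change of -0.85 (SE 0.13, edgeR adjusted p = 0.00191). Acrbp, whose product binds proacrosin, fell from 131 ± 5.30 to 70.9 ± 15.9 CPM (SD, n = 3 each, log2 fold change -0.88, edgeR adjusted p = 0.00177). Pcsk4, a proprotein convertase of spermatids, fell from 60.4 ± 2.37 to 47.8 ± 4.61 CPM (SD, n = 3 each, log2 fold change -0.33, edgeR adjusted p = 0.00955). In these 3 genes the genotypes did not overlap. In the list of other serine proteases 30 of 54 genes present were tested: 3 fell (Acr, Pcsk4 and Pcsk7), 4 rose (C1ra, C1s, Furin and Htra3), none of them by at least 2-fold, and the median log2 fold change was 0.22. These shares, 10.0% lower and 13.3% higher, stand beside 20.2% and 11.2% of all genes, so the list did not hold more decreases than the background.

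Among 19 tested genes for other inhibitors and acrosin partners, 4 fell (Acrbp, Papln, Spink2 and Wfdc15a) and 3 rose (Itih3, Itih5 and Wfdc1), at a median log2 fold change of -0.05. These shares of 21.1% and 15.8% are near those of all genes. Itih3, for a heavy chain of the inter-alpha-trypsin inhibitor, was at 1.39, 2.14 and 1.63 CPM in WT and at 9.56, 3.47 and 3.29 CPM in Trf2-/- mice. It was the one gene of these lists that rose by at least 2-fold, with Trf2-/- mouse 1 highest as in Serpina3n and Serpina3f. Its log2 fold change was 1.69 (SE 0.42, edgeR adjusted p = 0.0160) and 0.96 without that mouse (edgeR adjusted p = 0.0207). It did not pass without WT mouse 1 (edgeR adjusted p = 0.0713) or WT mouse 3 (0.0543).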

How the data were processed

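Whole testis RNA of 3 WT and 3 Trf2-/- mice, described as independent biological replicates, was sequenced as stranded, ribosome-depleted libraries. The authors used Tophat for alignment to mm9, and the raw read counts they deposited per gene, in 1 column per mouse, are the values used here. The submitters' processing notes name CASAVA 1.8.2, TopHat2 2.0.10, Bowtie2 2.1.0, HTSeq 0.5.4p3 and DESeq2 1.0.19. The annotation release and the use of strand in counting are not given in the sources used here, and a gene may therefore hold reads of a neighbour on the other strand. The 12 columns of normalized values were not used. Gene length is the authors' value in base pairs.

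The counts were filtered with filterByExpr, scaled with TMM factors and tested over all 16924 genes kept with edgeR 4.0.16 (R 4.3.3, glmQLFit and glmQLFTest, Benjamini-Hochberg adjustment, threshold 0.05). The standard error was derived from the log2 fold change and the F statistic. CPM uses the TMM-scaled library size. Members, gene lists and tests were chosen with earlier results of these data known. Named were members that passed, members dominated by 1 mouse, the 5 proteases and 5 serpins with the highest level per kb, the testis proteases, and Acr, Acrbp, Pcsk4 and other list genes changed by at least 2-fold. Prss41, Serpina3g, Serpina3i, Serpine2, Serpinf1, Prss23 and Tmprss5 were named after their values were seen. Values of 1 tested member are not reported here. Alternatives were other scalings, filters and thresholds, DESeq2 1.42.0, the replicate number as a block, and each mouse left out. The fit was tested on simulated data. Counts of same-genotype pairs differed by at least 3.52 times the sampling noise (chi-square over degrees of freedom), so no library was counted more than 1 time. Shared windows were counted in protein-coding transcripts of the mm9 annotation. Promoter sequences are from RefSeq (GRCm38.p6).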

Additional observations from a re-analysis of the deposited data

How the results depend on the processing

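The count of 13 proteases that fell was 11 to 13 under the other scalings, filters and DESeq2, 9 at an adjusted p of 0.01, and 6 with at least 2-fold. The 1 protease that rose became 2 with library size alone, with DESeq2 and with no filter, and 0 at an adjusted p of 0.01 or with at least 2-fold. The 4 serpins that rose became 7 with library size alone, 2 with DESeq2, 0 at an adjusted p of 0.01 and 2 with at least 2-fold. With library size alone, 38.7% of the calls over all genes were lower, instead of 64.4%. The count of 0 serpins that fell was the same under every alternative run. The median log2 fold change of the proteases was -0.089 with DESeq2 and -0.080 with no filter, both of which include more weakly expressed genes. With each mouse left out in turn, 9 to 13 proteases fell, 0 to 1 rose, and 0 to 7 serpins rose (0 without WT mouse 1 or WT mouse 3, 2 without Trf2-/- mouse 1, 7 without Trf2-/- mouse 3). The medians then ran from -0.40 to -0.19 for the proteases and from 0.21 to 0.44 for the serpins. Of the 25 members that were named and tested, none that passed changed its direction under any alternative run. Same-numbered mice did not deviate together (correlations -0.06, -0.08 and -0.08, each below those of mice with different numbers). This gave no sign that the numbers pair the mice, but values from 3 mice per genotype cannot exclude it. With the replicate block 12 proteases fell and 2 serpins rose. Under it Prss48, Serpina3n, Serpini1 and Tmprss13 did not pass (edgeR adjusted p = 0.0667, 0.0615, 0.0836 and 0.0531) and Prss35 did (0.0156). With groups of 3 mice, smaller changes, and those of genes near the floor of 3 counts, could be missed.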

Other observations

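Of the other serine protease and inhibitor genes listed, 4 that the text has not described passed the edgeR test whichever mouse was left out. They are given here as values and were chosen after their values were seen. In the lists of proteases and inhibitors 10.0% and 21.1% of the tested genes fell and 13.3% and 15.8% rose, beside 20.2% and 11.2% of all genes. Spink2, an inhibitor of acrosin in the acrosome, was at 219, 231 and 224 CPM in WT and at 142, 153 and 103 CPM in Trf2-/- mice (log2 fold change -0.76, SE 0.12, edgeR adjusted p = 0.00196). Papln was at 26.2, 24.9 and 27.0 CPM in WT and at 17.3, 18.7 and 15.04 CPM in Trf2-/- mice (log2 fold change -0.60, SE 0.09, edgeR adjusted p = 0.00144). Furin, a proprotein convertase, was at 48.4, 48.3 and 54.2 CPM in WT and at 62.2, 60.5 and 67.0 CPM in Trf2-/- mice (log2 fold change 0.33, edgeR adjusted p = 0.00628). Htra3, a secreted protease, was at 10.8, 12.3 and 14.2 CPM in WT and at 18.5, 19.9 and 20.7 CPM in Trf2-/- mice (log2 fold change 0.67, edgeR adjusted p = 0.00228). In all 4 genes the genotypes did not overlap. C1ra, C1s, Itih5, Pcsk7, Wfdc1 and Wfdc15a passed with all 6 mice and did not pass without at least 1 of them.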
